A study of Mus musculus with 6 samples.

Results

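CC and CXC chemokines are small secreted proteins that direct the migration of leukocytes and other cells through G protein-coupled receptors. Their classes are named for the spacing of the first cysteines of the protein, which are adjacent in the CC class and separated by a residue in the CXC class. The genes described here are Ccl2, Ccl7, Ccl5 and Ccl20 of the CC class and Cxcl1, Cxcl2, Cxcl5, Cxcl10 and Cxcl12 of the CXC class. They are 9 of the 18193 genes with a probe set paired to a single gene, chosen by name and represented by 13 of 45101 probe sets. Cxcl1 and Cxcl12 have 3 probe sets each and the others 1.

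The cells were NIH3T3 mouse embryonic fibroblasts with mutant LPAR1, on 3 Affymetrix arrays, and the same line with wild-type LPAR1, on 3 arrays. LPAR1 is a receptor for lysophosphatidic acid, a lipid mediator of serum. For each genotype 1 array covers each of the times 0, 60 and 120 minutes. The labels leave out which mutation the receptor carried and whether it was introduced. They also leave out the treatment that starts the clock and the number of cultures or clones. So p-values measure only the spread between these arrays, which may be technical. With 1 array per genotype and time, that spread is the difference in time course between the genotypes. It mixes scatter of the arrays with any real difference in time course.

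In fibroblasts Ccl2 and Cxcl1 are classical growth factor-inducible genes, first known there as JE and KC. Ccl2 and Ccl7 attract monocytes through the receptor Ccr2, and Cxcl1, Cxcl2 and Cxcl5 attract neutrophils through Cxcr2. Transcription of many inflammatory chemokines is driven by NF-kB, and their messages are often short-lived because AU-rich elements recruit decay factors. Cxcl12 differs from them as a constitutive, homeostatic chemokine of stromal cells.

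A RefSeq promoter table of mouse build GRCm38.p6 held 5 of the 9 genes, Ccl20, Cxcl1, Cxcl2, Cxcl10 and Cxcl12. The 250 bases before each transcription start were searched on both strands for the NF-kB consensus, for the AP-1 motif TGANTCA and for an interferon response motif of 2 runs of TTTC with any 2 bases between them. The 200 bases before the start of Cxcl1, the member that changed most with time, are shown with those of its neighbour Cxcl2, which stayed at low intensity, and of Cxcl10. The sequences run 5′ to 3′ on the strand of the gene, and capitals mark matches to the NF-kB consensus.
Cxcl1, chr5:90891045-90891244, plus strand: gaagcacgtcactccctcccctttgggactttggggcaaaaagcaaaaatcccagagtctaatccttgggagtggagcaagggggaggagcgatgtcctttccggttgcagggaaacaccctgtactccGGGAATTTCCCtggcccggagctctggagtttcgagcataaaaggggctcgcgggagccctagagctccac
Cxcl2, chr5:90903699-90903898, plus strand: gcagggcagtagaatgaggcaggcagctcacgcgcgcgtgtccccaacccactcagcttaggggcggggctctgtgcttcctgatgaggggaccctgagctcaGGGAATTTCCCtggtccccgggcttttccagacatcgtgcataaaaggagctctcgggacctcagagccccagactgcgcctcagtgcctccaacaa
Cxcl10, chr5:92348890-92349089, minus strand: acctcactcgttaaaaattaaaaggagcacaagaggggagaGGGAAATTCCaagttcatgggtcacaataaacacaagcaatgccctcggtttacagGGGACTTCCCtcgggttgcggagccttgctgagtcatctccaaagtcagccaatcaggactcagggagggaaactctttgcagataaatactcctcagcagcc

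The match in Cxcl1 began 71 bases and that in Cxcl2 97 bases before the start. In both genes it consisted of 2 overlapping matches, inside a shared run of 14 bases. Cxcl10 had 2 NF-kB matches, 1 AP-1 match that began 74 bases before the start and 1 interferon response match that began 213 bases before it, and Ccl20 had 1 NF-kB match. Cxcl12 had no match to any of the 3 motifs in this window. Of 32851 promoters in the table, 3.9% held the NF-kB consensus, 6.75% the AP-1 motif and 2.98% the interferon response motif. A match describes letters in the sequence and not a bound site.

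Values are intensities of a probe set on a linear scale, as summarised by the submitters. Differences are on the scale log2(intensity + 16), on which changes at low intensity are compressed. A gene was represented by its brightest probe set and was tested where its mean level reached an intensity of 39.2, the 40th percentile of genes. Ccl2, Ccl7, Cxcl1, Cxcl5 and Cxcl12 reached that level, 5 of the 9 members among 10916 genes tested. Intensities of different probe sets depend on their probes, so levels of different genes were not compared with each other. In the sums over marker genes given below, bright probe sets weigh most.

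The arrays were alike in brightness, with mean intensities from 299 to 308. All 9 fibroblast markers lay above the filter level, including the collagen genes Col1a1, Col1a2 and Col3a1. Of the monocyte and macrophage markers 5 of 10 lay below it, among them the leukocyte gene Ptprc at 13.9 to 21.8 and the macrophage gene Cd68 at 13.2 to 18.7. The other 5 lay above it, among them Cd14 at 211 to 294 and Lyz2 at 158 to 179 over all arrays. The filter level is the 40th percentile, so 40% of all genes lay below it. As a sign of RNA quality, the control probe sets of Actb gave a 5′ over 3′ ratio that was 0.505 in mutant and 0.579 in wild-type cells at 0 minutes and 0.650 to 0.699 at the later times. For Gapdh it was 0.954 in mutant and 1.02 in wild-type cells at 0 minutes and 0.991 to 1.03 later. The part of these ratios in the time differences below was not tested.

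**Figure D1:**
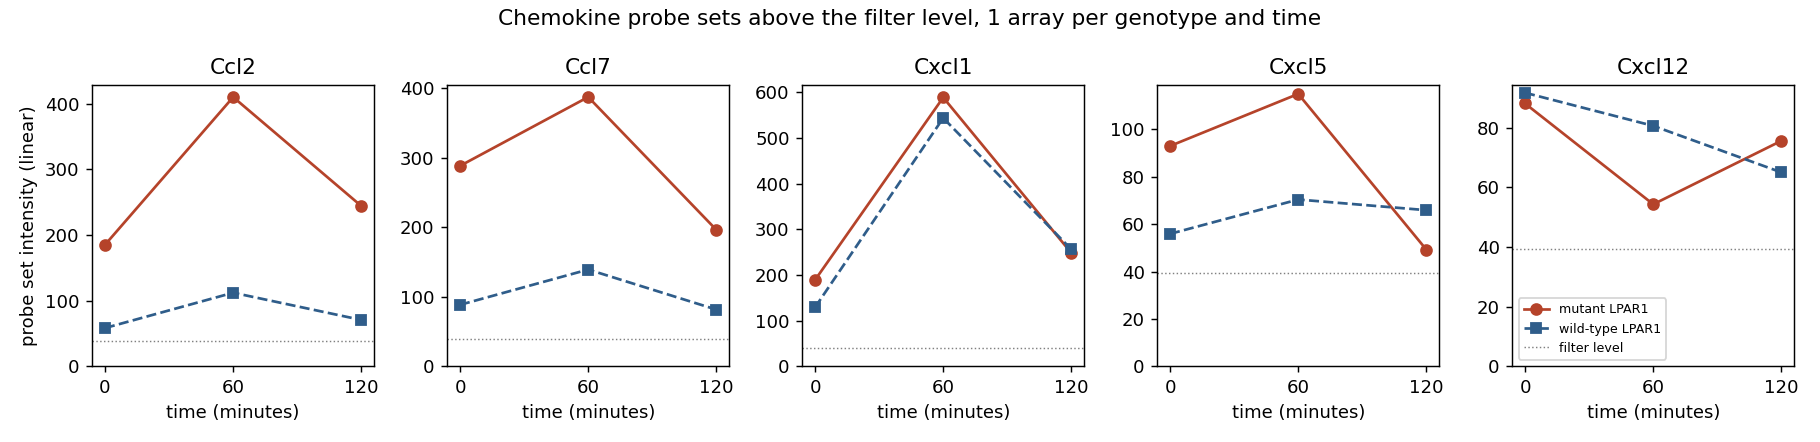
Probe set intensity on a linear axis against time in minutes for the 5 chemokines above the filter level, with 1 point per array, circles for mutant and squares for wild-type LPAR1. Ccl2 and Ccl7 are higher in mutant cells at each time, while Cxcl1 peaks at 60 minutes at 589 in mutant and 544 in wild-type cells.

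The comparison of genotypes describes how the mutant arrays differed from the wild-type arrays once the shared time response was taken into account. Ccl2 and Ccl7 were higher in mutant cells, 2 of 5 tested members, where 10.4% of all tested genes were higher and 8.92% were lower (limma with genotype and time as terms, Benjamini-Hochberg adjusted p of at most 0.05). No member was lower. The median log2 difference was 0.29 over the 5 members and 0.01 over all genes tested. Ccl2 ranked 8 and Ccl7 ranked 14 among the genes with a positive difference.

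Ccl2 had intensities of 185, 410 and 244 at 0, 60 and 120 minutes in mutant cells, against 58.2, 112 and 70.5 in wild-type cells. The lowest mutant array lay above the highest wild-type array. The intensity in mutant cells was 3.18 times that in wild-type cells at 0, 3.66 times at 60 and 3.47 times at 120 minutes. Mean intensity was 280 ± 117 in mutant and 80.3 ± 28.3 in wild-type cells (SD over times, n = 3 arrays each). The fitted log2 difference was 1.59 ± 0.08 (SE; 95% interval 1.41 to 1.76; limma adjusted p = 1.74e-06).

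Ccl7, whose protein also binds Ccr2, had intensities of 288, 387 and 196 at 0, 60 and 120 minutes in mutant cells, against 88.3, 139 and 81.4 in wild-type cells. The genotypes again did not overlap. Here the excess was highest at 0 minutes, at 3.26 times the wild-type intensity, with 2.78 times at 60 and 2.41 times at 120 minutes. Ccl7 averaged 290 ± 95.5 in mutant and 103 ± 31.6 in wild-type cells (SD, n = 3 arrays each). The log2 difference was 1.35 ± 0.087 (SE; 95% interval 1.15 to 1.54; limma adjusted p = 9.30e-06). The intervals of Ccl2 and Ccl7 overlap, so their order is not resolved. Both calls were lost when time was left out of the fit (limma adjusted p = 0.126 for Ccl2 and 0.135 for Ccl7), with the same estimates.

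**Figure D2:**
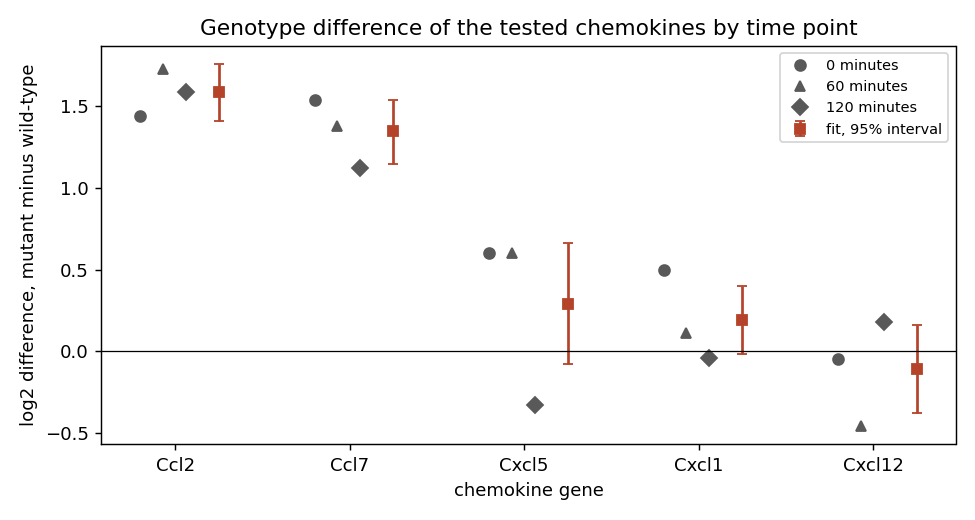
Log2 difference of mutant minus wild-type cells at 0, 60 and 120 minutes (grey symbols) and the fitted difference with its 95% interval (squares) for the 5 tested chemokines. The values for Ccl2 lie between 1.44 and 1.73 and those for Ccl7 between 1.12 and 1.54, while Cxcl5, Cxcl1 and Cxcl12 have values on both sides of 0.

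The CXC members did not pass for genotype, and their differences changed sign over time. Cxcl5, a neutrophil attractant, had intensities of 93, 115 and 49.2 at 0, 60 and 120 minutes in mutant cells, against 55.9, 70.4 and 65.9 in wild-type cells. It was brighter in mutant cells at 0 and 60 minutes and dimmer at 120 minutes, so the genotypes overlapped. The log2 difference was 0.60 at 0, 0.60 at 60 and -0.33 at 120 minutes, with a fitted value of 0.29 ± 0.16 (SE; 95% interval -0.08 to 0.66; limma adjusted p = 0.251). Without the 120 minute array of mutant cells the fitted value was 0.60 (adjusted p = 0.00119), and without that of wild-type cells it was 0.60 (adjusted p = 0.00135). These omissions remove the same pair of arrays from the estimate and are not separate checks.

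Cxcl1 had intensities of 189, 589 and 248 at 0, 60 and 120 minutes in mutant cells, against 129, 544 and 256 in wild-type cells, and the genotypes overlapped. Its genotype difference was 0.50 at 0, 0.11 at 60 and -0.04 at 120 minutes, with a fitted value of 0.19 ± 0.094 (SE; 95% interval -0.02 to 0.40; limma adjusted p = 0.195). Its other probe sets gave 0.04 and 0.11. Without the 120 minute array of mutant or of wild-type cells the value was 0.30 (adjusted p = 0.0304 and 0.0311).

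Cxcl12 was measured with probe sets that disagree in brightness. The brightest had intensities of 88.1, 54.3 and 75.6 at 0, 60 and 120 minutes in mutant cells, against 91.7, 80.6 and 65.0 in wild-type cells, and the genotypes overlapped. Its fitted genotype difference was -0.11 ± 0.12 (SE; 95% interval -0.38 to 0.16; limma adjusted p = 0.566), and 0.06 without either 60 minute array. A further set lay between 13.2 and 15.7 in mutant and 12.2 and 15.6 in wild-type cells. The last set lay between 0.0111 and 0.525 in mutant and 1.9 and 5.5 in wild-type cells. Which of the sets reports the Cxcl12 message in these cells is not given in the sources used here.

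Ccl2 and Ccl7 are adjacent protein-coding genes on chromosome 11, followed in RefSeq order by Ccl11, Ccl12, Ccl8 and Ccl1. Ccl8, a related CC chemokine, was also higher in mutant cells, with intensities of 161, 171 and 163 at 0, 60 and 120 minutes, against 67.6, 62.3 and 69.7 in wild-type cells. The genotypes did not overlap, and the log2 difference was 1.13 ± 0.081 (SE; limma adjusted p = 1.87e-05). It did not pass for 60 against 0 minutes, with a log2 difference of -0.01 ± 0.099 (adjusted p = 0.972). The genes between them stayed below the filter level in each array, Ccl11 at 2.6 to 9.55 in mutant and 4.27 to 7.29 in wild-type cells and Ccl12 at 8.62 to 17.7 in mutant and 9.11 to 17.5 in wild-type cells. Ccl1 lay at 4.51 to 9.46 in mutant and 5.19 to 10.7 in wild-type cells. On the other side of Ccl2, the nearest gene 1700071K01Rik gave 0.09 (adjusted p = 0.609), while Tmem98, 4 genes away, was higher in mutant cells by 0.45 (adjusted p = 0.00038).

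**Figure D3:**
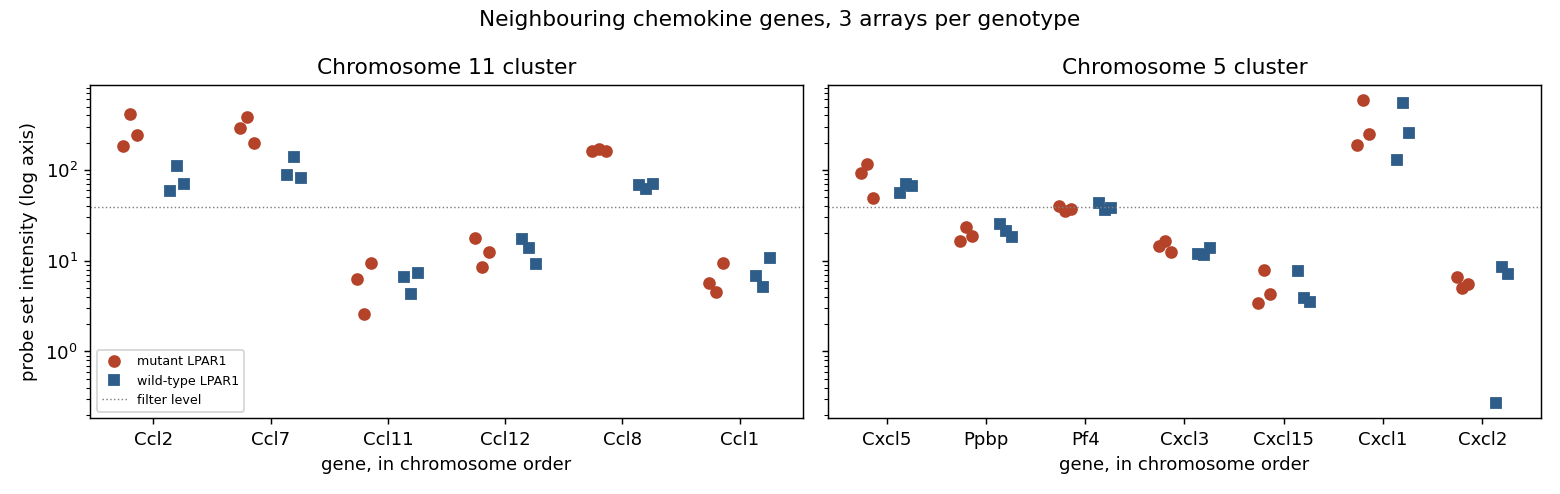
Probe set intensity on a log axis for neighbouring chemokine genes on chromosomes 11 and 5, in chromosome order, with circles for the 3 mutant and squares for the 3 wild-type arrays and a dotted line at the filter level. On chromosome 11 Ccl2, Ccl7 and Ccl8 lie above the line with mutant above wild-type arrays, and on chromosome 5 only Cxcl5 and Cxcl1 lie above it in each array.

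Of 5 monocyte and macrophage markers tested none passed as higher in mutant cells and 1 was lower, where 10.4% of all tested genes were higher and 8.92% lower. The lower one was Cd14, a receptor of monocytes (log2 -0.27 ± 0.069; limma adjusted p = 0.0225). The Cd14 call was lost without the 120 minute array of mutant (0.0839) or wild-type cells (0.0884) and without time in the fit (0.405). The summed intensity of the 10 monocyte and macrophage markers was 630 to 668 in mutant and 715 to 720 in wild-type cells. Cd14, the brightest of them, lay at 211 to 232 in mutant and 250 to 294 in wild-type cells. Of 5 endothelial markers, summed at 120 to 131 in mutant and 75.8 to 88.9 in wild-type cells, the cadherin gene Cdh5 was higher in mutant cells (log2 0.97 ± 0.10; limma adjusted p = 0.000243), though a dim second probe set gave 0.07. Within the sum Cdh5 alone made 61.4 to 64.6 in mutant and 22.4 to 27.4 in wild-type cells, and the other 4 genes lay below the filter level. The endothelial gene Pecam1 lay at 4.93 to 5.66 in mutant and 2.79 to 4.28 in wild-type cells, near the floor. Of the fibroblast markers, Col1a1 (-0.49; adjusted p = 0.000186) and the receptor gene Pdgfrb (-0.23; 0.00986) were lower and Col3a1 (0.18; 0.0066) was higher in mutant cells, the Pdgfrb and Col3a1 calls being lost without time in the fit (0.589 and 0.0736). Summed epithelial markers lay at 1336 to 1642 in mutant and 1400 to 1609 in wild-type cells. Most of this was Krt14, at 1029 to 1242 in mutant and 1001 to 1267 in wild-type cells. The epithelial cadherin gene Cdh1 was lower in mutant cells (-0.49; limma adjusted p = 0.00283), a call lost without time in the fit (0.451). Summed T cell markers lay at 73 to 109 in mutant and 53.6 to 86.3 in wild-type cells. Most of that sum was Cd8a, at 51.5 to 89.4 in mutant and 34.5 to 62.8 in wild-type cells. The probe set used for Cd8a gave a log2 difference of 0.52 ± 0.19 (limma adjusted p = 0.0863). Its other probe sets, all below the filter level, gave -0.24 to -0.07. The part of these markers in the genotype differences was not tested. In RNA of whole cultures, more cells that express a gene and more message per cell cannot be told apart.

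The comparison of 60 with 0 minutes describes the first hour in both genotypes. Cxcl1, Ccl2 and Ccl7 rose, 3 of 5 tested members, where 7.34% of tested genes rose and 10.7% fell. No member fell. The median log2 difference was 0.49 over the 5 members and -0.07 over all genes tested.

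Cxcl1 rose most. Its intensity at 60 minutes was 3.12 times that at 0 minutes in mutant and 4.21 times in wild-type cells. The fitted log2 difference was 1.75 ± 0.11 (SE, n = 2 arrays per time; limma adjusted p = 3.69e-06), which placed it at rank 59 of the genes that were higher at 60 minutes. When probe sets were fitted as features, its other sets gave 1.94 ± 0.12 and 1.61 ± 0.16 (limma adjusted p = 8.56e-06 and 0.000132). The names of these sets end in s_at and x_at, which in the nomenclature of the array marks probes that may also detect related transcripts.

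**Figure D4:**
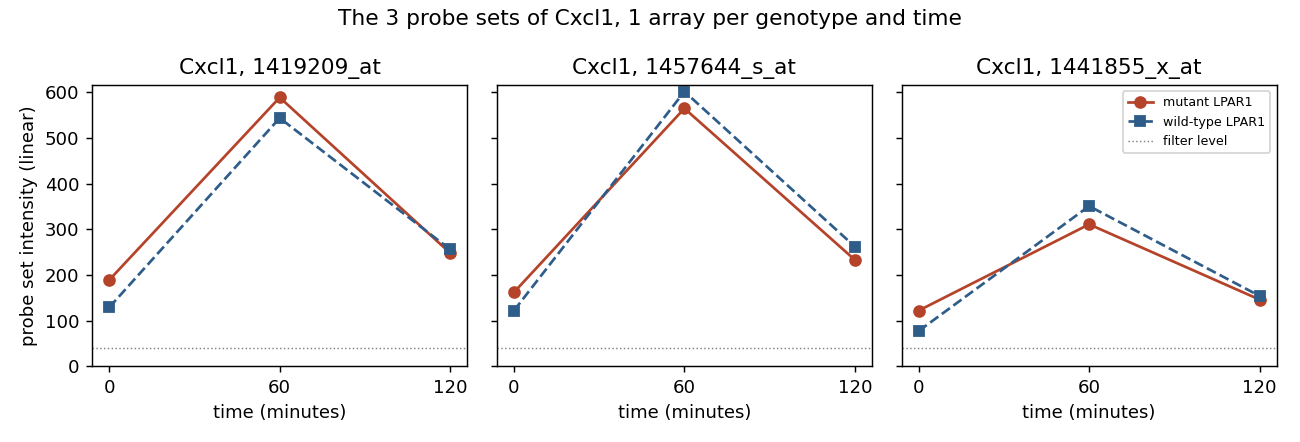
Intensity on a linear axis against time in minutes for the 3 probe sets of Cxcl1, circles for mutant and squares for wild-type LPAR1, with 1 array per point. Each set peaks at 60 minutes, and each starts higher in mutant cells, at 189, 162 and 122 against 129, 122 and 77.2 in wild-type cells.

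Ccl2 at 60 minutes was 2.22 times its intensity at 0 minutes in mutant and 1.93 times in wild-type cells. The fitted log2 difference was 0.94 ± 0.097 (SE; limma adjusted p = 0.000105). Ccl7 was 1.34 times brighter in mutant and 1.58 times brighter in wild-type cells (log2 0.49 ± 0.11; limma adjusted p = 0.0105). The Ccl7 call was lost without the 60 minute array of mutant cells (adjusted p = 0.0606) or the 0 minute array of wild-type cells (0.109). With genotype left out of the fit, the calls of Ccl2 (adjusted p = 0.593) and Ccl7 (0.76) were lost and that of Cxcl1 remained.

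Cxcl5 and Cxcl12 did not pass for the first hour. The log2 difference was 0.27 ± 0.20 for Cxcl5 (limma adjusted p = 0.392) and -0.36 ± 0.15 for Cxcl12 (adjusted p = 0.117). Cxcl12 passed without the 120 minute array of mutant (limma adjusted p = 0.0406) or wild-type cells (0.0396). With 1 array left at 60 minutes, its value was -0.62 without that of wild-type and -0.10 without that of mutant cells. Both genotypes were dimmer for Cxcl12 at 60 than at 0 minutes.

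In the second hour the members that had risen fell again. Between 60 and 120 minutes 3 of 5 tested members fell and none rose, where 15.0% of tested genes fell and 10.2% rose. Cxcl1 fell by 1.12 on the log2 scale (SE 0.11; limma adjusted p = 8.32e-05), Ccl7 fell by 0.80 (SE 0.11; adjusted p = 0.000411) and Ccl2 fell by 0.64 (SE 0.097; adjusted p = 0.000958). The intensity at 120 minutes was 0.42 of that at 60 minutes in mutant and 0.47 in wild-type cells for Cxcl1. It was 0.507 of it in mutant and 0.584 in wild-type cells for Ccl7, and 0.596 in mutant and 0.628 in wild-type cells for Ccl2. This comparison shares its 60 minute arrays with that of the first hour, so a high value at 60 minutes enters both with opposite sign. Cxcl5 differed by -0.54 ± 0.20 (adjusted p = 0.0782), and passed without either 0 minute array. Omission of a 60 or 120 minute array leaves 1 array at that time. The Cxcl5 value was then -0.78 without the 60 minute and -1.01 without the 120 minute array of wild-type cells. It was -0.31 without the 60 minute and -0.08 without the 120 minute array of mutant cells. Cxcl12 differed by 0.06 ± 0.15 (adjusted p = 0.822), and by -0.20 without the 60 minute and -0.15 without the 120 minute array of mutant cells.

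Over the full 2 hours Cxcl1 stayed above its starting level, with a log2 difference of 0.63 ± 0.11 between 120 and 0 minutes (limma adjusted p = 0.00137). Its intensity was 1.31 times the 0 minute value in mutant and 1.98 times in wild-type cells. Ccl2 was higher by 0.30 ± 0.097 (adjusted p = 0.0295) and Ccl7 differed by -0.31 ± 0.11 (adjusted p = 0.0361). These made 2 of 5 tested members higher and 1 lower, where 16.2% of tested genes were higher and 30.8% lower. The calls of Ccl2 and Ccl7 were not stable, and were lost without a filter on low levels (adjusted p = 0.052 and 0.0615), without the mutant array of 0 minutes (0.346 and 0.416) or that of 120 minutes (0.0884 and 0.372). Omitting the wild-type array of 120 minutes also ended the Ccl2 call (0.07). With all 6 arrays, scaling to a common distribution (0.0943) or a common median (0.0937) ended the Ccl7 call. Cxcl5 differed by -0.28 ± 0.20 (adjusted p = 0.288), by 0.19 without the mutant and by -0.74 without the wild-type array of 120 minutes. With 1 array left at 120 minutes, these values equal the changes of wild-type and of mutant cells alone, which have no replicate. Cxcl12 differed by -0.30 ± 0.15 (limma adjusted p = 0.122), and passed without the mutant (0.0455) or the wild-type array (0.0489) of 60 minutes. With 1 array left at 120 minutes, its value was -0.51 without that of mutant and -0.08 without that of wild-type cells.

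The difference in time course between the genotypes has no replicate and was not tested. For Cxcl1 the log2 change from 0 to 60 minutes was 1.56 in mutant and 1.95 in wild-type cells, and from 0 to 120 minutes 0.36 in mutant and 0.90 in wild-type cells. The mutant change was smaller by 0.39 to 0.73 at 60 minutes and by 0.52 to 0.63 at 120 minutes over the 3 probe sets, which were read from the same RNA. The log2 difference of mutant minus wild-type cells at 0 minutes was 0.50, 0.36 and 0.56 for these sets. At 60 minutes it was 0.11, -0.09 and -0.17. For Ccl2 the change from 0 to 60 minutes was 1.09 in mutant and 0.79 in wild-type cells. For Ccl7 it was 0.41 in mutant and 0.57 in wild-type cells, and from 0 to 120 minutes it was -0.52 in mutant and -0.10 in wild-type cells. For Cxcl5 the changes from 0 to 60 minutes were 0.27 in mutant and 0.26 in wild-type cells, whereas from 60 to 120 minutes they were -1.01 in mutant and -0.08 in wild-type cells.

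The remaining members stayed below the filter level in each of the 6 arrays. Ccl5, which attracts T cells, had intensities of 33.9, 23.2 and 23.6 at 0, 60 and 120 minutes in mutant cells, against 27.9, 23.5 and 27.6 in wild-type cells. Ccl20, the ligand of Ccr6, had 14.6, 9.68 and 8.63 in mutant cells, against 16.5, 16.6 and 13.1 in wild-type cells. The genotypes overlapped for both. Cxcl2 had 6.61, 5.06 and 5.55 in mutant cells, against 0.27, 8.58 and 7.17 in wild-type cells. Cxcl10, an interferon-induced ligand of Cxcr3, had 9.52, 6.62 and 9.43 in mutant cells, against 14.6, 11.9 and 8.45 in wild-type cells. When fitted without the filter, these 4 genes had limma adjusted p from 0.224 to 0.979 over the comparisons. A value below the filter level does not show that the gene was silent.

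**Figure D5:**
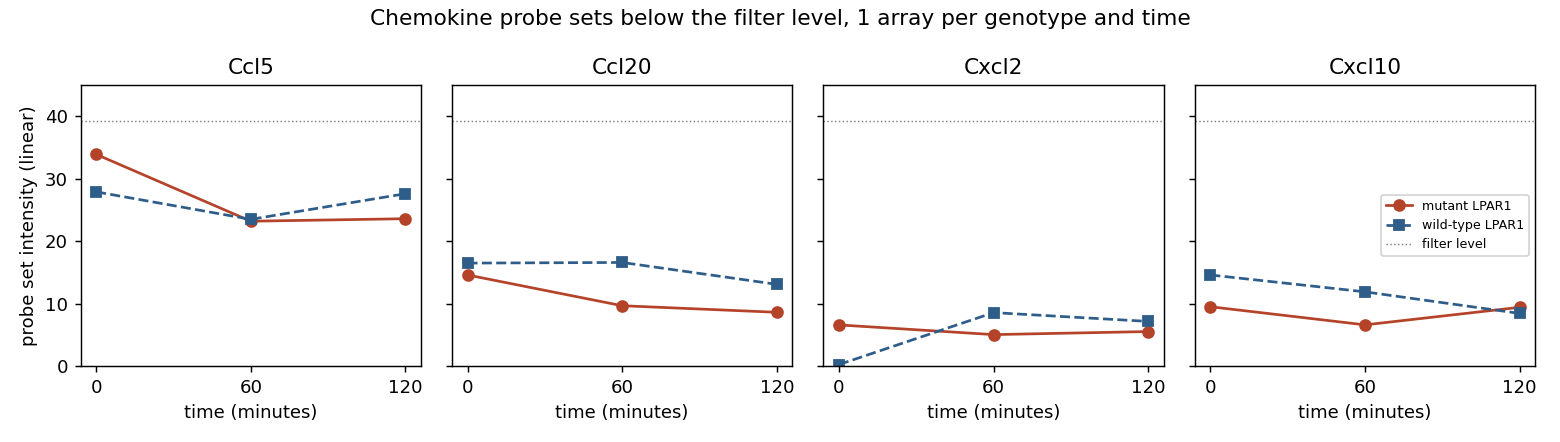
Probe set intensity on a linear axis against time in minutes for Ccl5, Ccl20, Cxcl2 and Cxcl10, circles for mutant and squares for wild-type LPAR1, with 1 array per point. Each value lies below the dotted line at the filter level of 39.2, and the highest is 33.9 for Ccl5.

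On chromosome 5, RefSeq places Ppbp, Pf4, Cxcl3 and Cxcl15 between Cxcl5 and Cxcl1, with Cxcl2 next to Cxcl1. Mean levels of Ppbp, Pf4, Cxcl3, Cxcl15 and Cxcl2 were below the filter level. Ereg, an EGF receptor ligand that lies 4 genes beyond Cxcl1, had intensities of 61.2, 1728 and 929 at 0, 60 and 120 minutes in mutant cells, against 62.8, 1674 and 1618 in wild-type cells. Afp, the alpha-fetoprotein gene 4 genes before Cxcl5, had 138, 120 and 119 in mutant cells, against 7.04, 15.8 and 12.5 in wild-type cells. Ereg and Afp were singled out after their values were seen.

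Across the 6 arrays the log2 levels of Ccl2 and Ccl7 correlated at Pearson's r = 0.941. The points share genotype and time, so the value describes these arrays. Among 985 tested genes whose level spanned at least 1 on the log2 scale, the genes most like Ccl2 were AI662270 (r = 0.944), Ccl7 and Adam22 (0.937). Those most like Ccl7 were Gpsm2 (0.975), Kbtbd7 (0.964) and P2ry10b (0.946). Cxcl1 was nearest to Rgs3 (0.990), Plk3 (0.985) and Ptger4 (0.984). Ptger4, a prostaglandin E2 receptor gene, had intensities of 437, 3179 and 706 at 0, 60 and 120 minutes in mutant cells, against 385, 2868 and 734 in wild-type cells. Cxcl5 was nearest to Pcdh10 (0.912), Zeb2 (0.902) and Fam43a (0.808).

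Of 29 other chemokine ligands listed, 26 had a probe set and 8 were tested. For genotype 1 was higher, Ccl8, and 1 lower, Ccl25 (log2 -0.29 ± 0.081; limma adjusted p = 0.034), with a median of -0.10, where 10.4% of all tested genes were higher and 8.92% lower. The Ccl25 call was lost in 8 of 15 alternatives, among them omission of the 0 minute array of mutant (0.133) or wild-type cells (0.14) or of the 120 minute array of mutant (0.103) or wild-type cells (0.108). At 60 against 0 minutes none rose and 1 fell, where 7.34% of all tested genes rose and 10.7% fell. This was Ccl27a, whose probe set has a name that ends in x_at and may also detect related transcripts. Ccl27a fell by 0.46 (SE 0.09; limma adjusted p = 0.0062). It was also the only one called for 120 against 0 minutes, with a log2 difference of -0.37 ± 0.09 (adjusted p = 0.00773). There 16.2% of all tested genes were higher and 30.8% lower. Without the 0 minute array of mutant or wild-type cells both calls were lost (0.0512 and 0.0532 for 60 minutes, 0.0628 and 0.0637 for 120 minutes). For 120 against 60 minutes 0 passed in limma, and 0 at an unadjusted p under 0.05, where 10.2% of all tested genes rose and 15.0% fell.

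Receptors for these ligands were mostly dim. Of 23 listed, 21 had a probe set and 8 were tested. Ackr3, a scavenging receptor for Cxcl12, had intensities of 2613, 2115 and 2887 at 0, 60 and 120 minutes in mutant cells, against 2965, 2956 and 3891 in wild-type cells. The name of its probe set ends in s_at, so it may also detect related transcripts. Ackr3 was dimmer in mutant cells at each time, and was the only receptor called for genotype (log2 -0.36 ± 0.057; limma adjusted p = 0.0024), a call lost without time in the fit (0.488). Of all tested genes 10.4% were higher and 8.92% lower for genotype. Ackr3 was also the receptor that rose between 60 and 120 minutes (log2 0.42 ± 0.07; limma adjusted p = 0.00163) and between 0 and 120 minutes (0.27 ± 0.07; adjusted p = 0.0108). Among all tested genes 10.2% rose from 60 to 120 minutes and 16.2% from 0 to 120 minutes. The Ackr3 call for 120 against 0 minutes was lost without the 0 minute (0.187) or 120 minute (0.0609) array of wild-type cells. Cxcr4, the signalling receptor for Cxcl12, lay at 2.55 to 5.45 in mutant and 2.68 to 5.15 in wild-type cells. Ccr2 lay at 18.9 to 24.6 in mutant and 20.4 to 27.4 in wild-type cells, and Cxcr2 at 2.47 to 3.88 in mutant and 0.253 to 4.68 in wild-type cells.

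Among NF-kB pathway genes 12 of 16 were tested. At 60 against 0 minutes 5 rose and 1 fell, where 7.34% of all tested genes rose and 10.7% fell. Rel, an NF-kB subunit, rose by 1.39 ± 0.11 (limma adjusted p = 1.26e-05) and Tnfaip3, a feedback inhibitor, by 0.95 ± 0.13 (adjusted p = 0.000669), though a dim probe set of Tnfaip3 gave -0.01. The subunit gene Relb rose by 0.36 ± 0.085 and Nfkbiz by 0.31 ± 0.08, where another probe set of Nfkbiz above the filter level gave -0.69. The Relb call was lost without the 0 minute array of mutant (0.141) or wild-type cells (0.0615) and without the 60 minute array of mutant (0.101) or wild-type cells (0.0593). The Nfkbiz call was lost without the 60 minute array of mutant (0.123) or the 0 minute array of wild-type cells (0.213). At 120 against 0 minutes 5 were higher and 4 lower, where 16.2% of all tested genes were higher and 30.8% lower. Rel was at 1.09 ± 0.11, Tnfaip3 at 0.80 ± 0.13, Relb at 0.66 ± 0.085 and Nfkbiz at 0.61 ± 0.08. The lower ones were Nfkbia at -0.60 ± 0.06, Ikbke at -0.54 ± 0.10, Tnip1 at -0.46 ± 0.073 and Ikbkg at -0.43 ± 0.083. Nfkbia did not pass for 60 against 0 minutes (-0.08 ± 0.06; limma adjusted p = 0.381) and fell by 0.52 from 60 to 120 minutes (SE 0.06). The probe set of Nfkbiz that gave -0.69 in the first hour gave -0.38 here, and the dim set of Tnfaip3 gave -0.02. From 60 to 120 minutes 2 rose and 2 fell, where 10.2% of all tested genes rose and 15.0% fell. For genotype none was higher and 1 was lower, where 10.4% of all tested genes were higher and 8.92% lower. The lower one was Nfkbiz (-0.36 ± 0.065; limma adjusted p = 0.0049), a call lost without time in the fit (0.671). The list medians were 0.00 for genotype, 0.03 for 60 against 0, 0.14 for 120 against 0 and -0.08 for 120 against 60 minutes.

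Of 8 listed mRNA decay and stability factors all were tested, and 0 passed for genotype in limma, with 2 at an unadjusted p under 0.05. Of all tested genes 10.4% were higher and 8.92% lower for genotype. At 60 against 0 minutes 4 rose and 1 fell, where 7.34% of all tested genes rose and 10.7% fell. Zfp36, which encodes the decay factor tristetraprolin, had intensities of 230, 721 and 140 at 0, 60 and 120 minutes in mutant cells, against 224, 838 and 193 in wild-type cells. It rose by 1.71 ± 0.10 in the first hour (limma adjusted p = 1.82e-06) and fell by 2.13 in the second (SE 0.10; adjusted p = 7.75e-07). Zc3h12a, which encodes the nuclease Regnase-1, rose by 1.07 ± 0.11 (adjusted p = 9.53e-05), where its dim probe set gave -0.07, and fell by 0.91 (SE 0.11), a call lost with the mean of its probe sets (-0.20; adjusted p = 0.14). The related decay factor gene Zfp36l2 rose by 0.53 ± 0.057 in the first hour, where its other probe sets above the filter level gave 0.81 and -0.14. Tia1, which encodes a translational repressor, fell by 0.54 (SE 0.075). Between 60 and 120 minutes 1 of 8 rose and 5 fell, where 10.2% of all tested genes rose and 15.0% fell, and Zfp36l1, of the Zfp36 family, fell by 1.58 (SE 0.055; adjusted p = 8.91e-08). For 120 against 0 minutes 3 were higher and 4 lower, beside 16.2% and 30.8% of all tested genes. The list medians were 0.20, -0.06 and -0.27 for 60 against 0, 120 against 0 and 120 against 60 minutes, and 0.01 for genotype.

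Of 15 interferon-linked genes listed, 7 were tested. At 60 against 0 minutes 0 rose and 3 fell, where 7.34% of all tested genes rose and 10.7% fell. Irf1, a transcription factor of interferon responses, had intensities of 523, 279 and 195 at 0, 60 and 120 minutes in mutant cells, against 524, 225 and 146 in wild-type cells. It fell by 1.02 in the first hour (SE 0.097; limma adjusted p = 5.42e-05). Stat2, a signal transducer of interferon receptors, fell by 0.81 (SE 0.18), a call lost without the 0 minute array of wild-type cells (0.16), and Ifit3 fell by 0.34 (SE 0.096), a call lost in 7 of 15 alternatives, among them omission of any 0 or 60 minute array (0.0934 to 0.318). At 120 against 0 minutes 5 of 7 were lower and 0 higher, where 30.8% of all tested genes were lower and 16.2% higher, with Irf1 at -1.55 ± 0.097, Ifit3 at -1.24 ± 0.096, Ifit2 at -0.77 ± 0.082 and Stat2 at -0.70 ± 0.18. The Stat2 value for 120 against 0 minutes ranged from -1.02 to -0.37 on leaving out an array. It was -0.44 without the 0 minute and -0.37 without the 120 minute array of wild-type cells, and a dim Stat2 probe set gave -0.24. From 60 to 120 minutes 4 of the 7 fell and 0 rose, where 15.0% of all tested genes fell and 10.2% rose. For genotype 3 were higher, Ifit1 (0.42 ± 0.11), Ifit2 (0.41 ± 0.067) and Ifit3 (0.32 ± 0.078), where 10.4% of all tested genes were higher. Without time in the fit all 3 calls were lost (0.537, 0.738 and 0.95), and omission of any 0 or 60 minute array ended those of Ifit1 (0.0886 to 0.123) and Ifit3 (0.0501 to 0.154). The list medians were 0.22 for genotype, -0.12 for 60 against 0, -0.70 for 120 against 0 and -0.42 for 120 against 60 minutes.

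Genes of chemokine processing and of the heparan sulfate that holds chemokines at cell surfaces were tested for 8 of 10 members. For genotype 1 was higher, the protease gene Mmp14 (0.16 ± 0.043), and 4 were lower, Sdc2 (-0.29 ± 0.052), Ext1 (-0.21 ± 0.058), Sdc4 (-0.19 ± 0.049) and Gpc1 (-0.18 ± 0.055), with limma adjusted p from 0.00472 to 0.0459, where 10.4% of all tested genes were higher and 8.92% lower. Other probe sets of Mmp14 above the filter level gave 0.19 and -0.03 for genotype. Of 16 alternatives the call was lost in 10 for Gpc1, 9 for Mmp14, 7 for Sdc4, 6 for Ext1 and 1 for Sdc2. Omission of any array ended the Mmp14 call (0.0518 to 0.114), omission of any 0 minute array those of Ext1 (0.196 and 0.202) and Sdc4 (0.131 and 0.135), and omission of either 60 minute array that of Sdc4 (0.0663 and 0.0674) and that of Gpc1, whose value was then -0.10 (0.27 and 0.274). Omission of either 120 minute array also ended the Gpc1 call (0.0544 and 0.0552). At 60 against 0 minutes 2 rose and none fell, the syndecan genes Sdc4 (1.33 ± 0.06; adjusted p = 2.29e-07) and Sdc2 (0.26 ± 0.064; adjusted p = 0.0201), where 7.34% of all tested genes rose. The Sdc2 call was lost without the 0 minute (0.163) or the 60 minute (0.219) array of mutant cells. At 120 against 0 minutes 5 were higher and none lower, beside 16.2% of all tested genes higher and 30.8% lower. Sdc4 stood at 1.70 ± 0.06 and Sdc1 at 0.79 ± 0.11. Between 60 and 120 minutes 2 rose and none fell, where 10.2% of all tested genes rose and 15.0% fell. The list medians were -0.19 for genotype, 0.07 for 60 against 0, 0.32 for 120 against 0 and 0.12 for 120 against 60 minutes.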

How the data were processed

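RNA of 6 samples of NIH3T3 cells was measured on Affymetrix arrays. Each deposited value is a linear intensity of a probe set. The submitters' processing notes name PLIER and Affymetrix Power Tools 1.14.3.1. Background correction and scaling between arrays are not given in the sources used here. The number of arrays limits the precision.

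Of 45101 probe sets 34945 were paired with 1 gene by the platform annotation, 932 with several, 9160 with none and 64 were controls. Gene IDs of 34741 matched RefSeq symbols. Tests used log2(intensity + 16) without further scaling in limma 3.58.1 under R 4.3.3, with additive terms for genotype and time, empirical Bayes with a trend, 2 residual and 7.77 prior degrees of freedom. Adjustment by Benjamini-Hochberg ran over all 10916 genes within a contrast, two-sided, at 0.05. Contrasts share arrays. The fit was tested on simulated data with additive effects and the same noise for every gene. That check cannot show how p-values behave where the genotypes differ in time course. Groups and times come from the labels.

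The replicate block is time, which the labels give for both genotypes. Deviations from the mean of the own genotype correlated across genes at 0.911, 0.756 and 0.871 for 0, 60 and 120 minutes, and negatively between times. The deviations of a gene sum to 0 within a genotype, so the negative values follow in part from the centring and are no separate evidence for the block. Genes are not independent replicates here.

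All 9 members were named. For other lists at most 4 members were named per comparison, by size of difference among those that passed. Outside that rule, and chosen after their values were seen, are Mmp14, Ereg, Afp, the called markers, the dim receptors of the members and the neighbours of their genes. Markers served as a check of the cells. The members and lists were chosen with earlier results of these data known, so counts over them are descriptions. Genes most like a member were the 3 with the highest Pearson correlation over the arrays. Alternatives were the offset, filter, scaling, probe set choice, trend, block and omission of each array.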

Additional observations from a re-analysis of the deposited data

Results flagged for a closer look

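In 2 cases the time change of a tested chemokine went opposite ways in the genotypes. These differences rest on 1 array per genotype and time and were not tested. For Cxcl5 from 0 to 120 minutes the log2 change was -0.74 in mutant and 0.19 in wild-type cells, a difference of -0.93. For Cxcl12 from 60 to 120 minutes it was 0.38 in mutant and -0.26 in wild-type cells, a difference of 0.64 at the brightest of its probe sets, while its other sets gave -0.01 and -0.14.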

How the results depend on the processing

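No genotype and time was repeated, which limits each comparison. Genotype calls numbered 2112 genes and 2 members; 1397 genes passed without the trend, and 89 genes and 0 members with no replicate block, that is without time in the fit. A filter at the 60th percentile left Ccl2 and Ccl7 untested and thus 0 members called for genotype, and 1 member in each time comparison. With genotype left out of the fit 1 member passed in each time comparison, and 585 genes passed for 60 against 0, 2772 for 120 against 0 and 1007 for 120 against 60 minutes. Fitting probe sets gave 2988 and 8021 calls for 60 and 120 against 0 minutes. Without a filter 1 member passed for 120 against 0 minutes. Leaving out an array gave 1373 to 2163 genes and 2 to 4 members for genotype, 1156 to 2516 and 2 to 4 for 60 against 0, 3691 to 5317 and 1 to 4 for 120 against 0, and 1956 to 2718 and 3 to 4 for 120 against 60 minutes. Reversed signs, none of them of a called member, were 0.06 for Cxcl12 in genotype without either 60 minute array (range on leaving out an array -0.25 to 0.06), 0.19 for Cxcl5 at 120 against 0 minutes without the mutant 120 minute array (range -0.74 to 0.19), and -0.20 and -0.15 for Cxcl12 at 120 against 60 minutes without the mutant 60 or 120 minute array (range -0.20 to 0.32). Untested time-course differences reversed to -0.02 for Cxcl5 at offset 1 and to 0.05 and -0.22 at weaker probe sets of Cxcl12, and Nfkbiz at 60 against 0 minutes reversed to -0.02 as the mean of its probe sets. Of 88 calls of list genes 32 were kept under every alternative that tested them, among them Ccl8 and Cdh5 for genotype. The causes of these changes were not tested where the setting itself does not give them.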
